A study of Mus musculus with 11 samples.

Results

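The genes described here are the translation initiation factors (eIF) and elongation factors (eEF) of the mouse, together with the kinases of eIF2, the eIF4E-binding proteins and the enzymes that modify eEF2. They were chosen by name. A total of 73 listed names began with Eif1 to Eif6 or Eef, and 62 of them remained out of 50600 listed genes after leaving out Eif2s3x and Eif2s3y, 7 pseudogene names and 2 other X-linked genes (Eif1ax and Eif2c5). The counts came from RNA-seq of hearts of C57BL/6 mice (C57Bl/6J in the study's methods) that underwent pulmonary artery banding (PAB), which narrows the outflow of the right ventricle, or a sham operation without the band on the day of birth. Hearts were taken at postnatal day 3 (P3) or day 7 (P7), with 3 libraries of P3 sham, 3 of P3 PAB, 3 of P7 sham and 2 of P7 PAB. The labels name the tissue as heart and the study's methods as ventricles, so cells of both ventricles were measured together although the band loads the right ventricle, and nothing in the labels says whether a library is 1 animal or a pool. The p-values therefore measure the spread between these libraries, which may be technical.

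Protein synthesis starts when eIF2 brings the initiator tRNA to the small ribosomal subunit, with eIF1, eIF1A, eIF3 and eIF5 helping to find the start codon. The cap-binding complex eIF4F, made of eIF4E, the scaffold eIF4G and the helicase eIF4A, recruits the mRNA, and the eIF4E-binding proteins block it when they are not phosphorylated by mTORC1. During elongation, eEF1A delivers each aminoacyl-tRNA, the eEF1B subunits recharge eEF1A with GTP, and eEF2 moves the ribosome along. Heart muscle, skeletal muscle and neurons express a second form of eEF1A, encoded by Eef1a2, beside the general form encoded by Eef1a1.

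Libraries held between 19274045 and 26820228 counts. At P3 the 62 genes took 1.32% ± 0.0107 (SD, n = 3) of all counts after the sham operation and 1.33% ± 0.0411 (n = 3) after PAB, and at P7 they took 1.01% ± 0.0272 (n = 3) and 1.10% ± 0.0101 (n = 2). Transcripts of the mitochondrial genome, which share the same total, took 12.1% and 12% at P3 and 21.6% and 18.1% at P7, sham first. Levels below are therefore CPM, counts scaled by the TMM method of edgeR to a common library size, and levels compared between genes are CPM per kilobase of exonic length (RPKM). Exonic length is the union of all annotated exons of a gene, which can exceed the length of the transcripts expressed. At P7 the 3 sham libraries had Xist at 630 CPM or more and both PAB libraries had the Y-linked Ddx3y at 42.9 CPM or more, so that the sex shown by these transcripts and the operation cannot be told apart within P7. At P3 only sham replicate 1 had Xist above 1 CPM. The sham libraries of P3 and P7 therefore also differed in the sex shown, which bears on the change with age in sham and on the interaction. Both P7 PAB libraries also gave lower values to genes with more exonic bases. Their slopes were -0.15 and -0.14 in log2 level per doubling of exonic length, against -0.03 to 0.07 in the other 9 libraries. Of the markers of other cells, the smooth muscle genes Tagln and Cnn1 exceeded P7 sham in P7 PAB by 1.19 ± 0.11 (SE) and 2.56 ± 0.29 on the log2 scale, while Acta2 (0.42 ± 0.16) and Myh11 (-0.24 ± 0.13) were not called. The cardiomyocyte genes Myh6 and Ryr2 were lower by values of -0.89 ± 0.09 and -0.90 ± 0.11, while Myl2 and Myl3 were higher by 0.47 ± 0.08 and 0.51 ± 0.07 (adjusted p of at most 0.00018, edgeR, under 1.5-fold). In bulk hearts, fewer cells of a type and less RNA per cell cannot be told apart.

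Promoter windows from RefSeq on GRCm38.p6 were available for 48 of the 62 genes. The windows of 4 elongation genes are shown because the results turn on them: the Eef1a1 and Eef1a2 pair, and Eef1b2 and Eef1e1, which were higher in P7 PAB. Each sequence runs 5′ to 3′ in the direction of transcription, from 200 bases before the annotated start to 30 bases from it, at chr9:78481695-78481924 (minus strand), chr2:181156986-181157215 (minus strand), chr1:63176631-63176860 (plus strand) and chr13:38658999-38659228 (minus strand). Capitals mark GC boxes (GGGCGG) and ETS core motifs (CCGGAAG) on either strand.
Eef1a1: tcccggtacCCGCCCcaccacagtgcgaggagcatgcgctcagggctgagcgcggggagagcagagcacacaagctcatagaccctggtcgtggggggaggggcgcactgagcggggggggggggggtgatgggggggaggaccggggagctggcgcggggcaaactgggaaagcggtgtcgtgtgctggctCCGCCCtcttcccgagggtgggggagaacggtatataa
Eef1a2: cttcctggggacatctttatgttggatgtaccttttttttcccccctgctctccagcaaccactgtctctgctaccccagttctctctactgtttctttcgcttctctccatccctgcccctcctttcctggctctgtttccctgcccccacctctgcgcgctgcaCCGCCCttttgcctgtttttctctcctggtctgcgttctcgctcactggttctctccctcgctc
Eef1b2: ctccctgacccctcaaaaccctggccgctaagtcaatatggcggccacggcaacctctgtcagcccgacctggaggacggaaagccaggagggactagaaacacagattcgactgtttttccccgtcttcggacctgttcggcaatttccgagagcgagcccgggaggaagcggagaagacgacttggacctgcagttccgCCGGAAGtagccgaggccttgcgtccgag
Eef1e1: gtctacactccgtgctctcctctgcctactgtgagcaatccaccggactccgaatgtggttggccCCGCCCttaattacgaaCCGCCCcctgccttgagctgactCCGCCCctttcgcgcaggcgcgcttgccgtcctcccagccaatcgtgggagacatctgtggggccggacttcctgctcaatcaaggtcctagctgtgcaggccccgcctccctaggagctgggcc
The Eef1a1 window held 2 GC boxes and the Eef1a2 window 1, all read on the opposite strand. The Eef1a1 window ends in a TATA-like stretch that lies after the annotated start, so this start may not be the main one in these hearts, and positions in the window are given only relative to the annotation. The Eef1e1 window held 3 GC boxes, and the Eef1b2 window held an ETS core that began at base 2 of the annotated transcript. Over the full 300-base windows, searched on both strands, 36 of the 48 genes (75.0%) had a GC box, against 66.7% of the 10556 tested autosomal genes that had a window and 38.6% of all 25748. An ETS core was present in 16 of 48 (33.3%, against 18.6% of tested genes and 10.1% of all), and the E-box CACGTG in 12 of 48 (25%, against 11.3% and 8.11%). The TATA box TATAAA was present in 4 of 48 (8.33%, against 8.93% and 15.7%). The letters TGATGNAA, which ATF4 binds, were present in 1 of 48 (2.08%, against 2.74% and 4.33%). None of the motifs contains another, although neighbouring matches can share bases, and a match describes only the letters of a window.

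Of the 62 genes, 61 had enough counts to be tested. Eif4e1b, an oocyte form of eIF4E, had no count in 10 libraries and 1 count in P7 PAB replicate 1. Per kilobase, the most abundant transcripts by the mean over all 11 libraries were Eef1a1 at 1391 RPKM, Eef2 at 521 RPKM and Eef1a2 at 164 RPKM. Eif5a at 124 RPKM, Eif1 at 123 RPKM and Eef1g at 118 RPKM followed. Their libraries overlapped one another and those of Eef1a2, so these 3 and Eef1a2 are not ordered. In P7 PAB, Eef1a2 was below Eif5a and Eif1 per kilobase. Eif3j2, at 0.699 RPKM, was the lowest of the tested genes, and it shares a stretch of at least 300 bases with Eif3j1 at 95% identity or more, so that reads may be split between them.

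In P3 PAB, none of the 61 genes was called higher or lower than in P3 sham (edgeR quasi-likelihood test, at least 1.5-fold and an adjusted p of at most 0.05 over 15808 genes). Across all tested genes 0.108% were called higher and 0.019% lower, so few calls were made anywhere at this age. An unadjusted p under 0.05 was found for 4 of the 61 genes by edgeR and for 6 by DESeq2, against 8.39% of all genes by edgeR, and the lowest adjusted p by edgeR was 0.35, for Eif1a. The log2 differences were small, with 49 of 61 above 0 and a median of 0.058, against a median near 0 for all genes (-0.00102). Without P3 sham replicate 3 the median was 0.035, without P3 PAB replicate 1 it was 0.038. Scaling to the total count instead gave a median of 0.015 and 33 of 61 above 0. The 3 PAB libraries all lay above the 3 sham libraries for 15 genes and below them for 1, while 8.65% and 8.02% of all genes did so. All 8 elongation factors were above 0 (0.02 to 0.30) and all 4 eIF2 kinases below 0 (-0.13 to -0.01), but none of them passed the test.

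In P7 PAB, 11 of the 61 genes were called higher than in P7 sham and 1 was called lower. Among all tested genes 9.63% were called higher and 8.59% lower, against 18.0% and 1.64% of these genes. The 11 genes came from 6 of the 7 roles: the elongation genes Eef1b2 and Eef1e1, the eEF2 methyltransferase gene Eef2kmt, the eIF3 genes Eif3i, Eif3k and Eif3m, the eIF4 genes Eif4a1, Eif4ebp1 and Eif4ebp3, Eif6, and the eIF2 exchange factor gene Eif2b2. The gene called lower was Eef1a2. Without the threshold on fold change, 25 were higher and 11 lower at an adjusted p of at most 0.05 (41.0% and 18.0%, against 22.8% and 22.1% of all genes). The 2 PAB libraries lay above all 3 sham libraries for 30 genes and below them for 17, against 30.8% and 29.6% of all genes. The median log2 difference was 0.16, with 42 of 61 above 0.

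**Figure D1:**
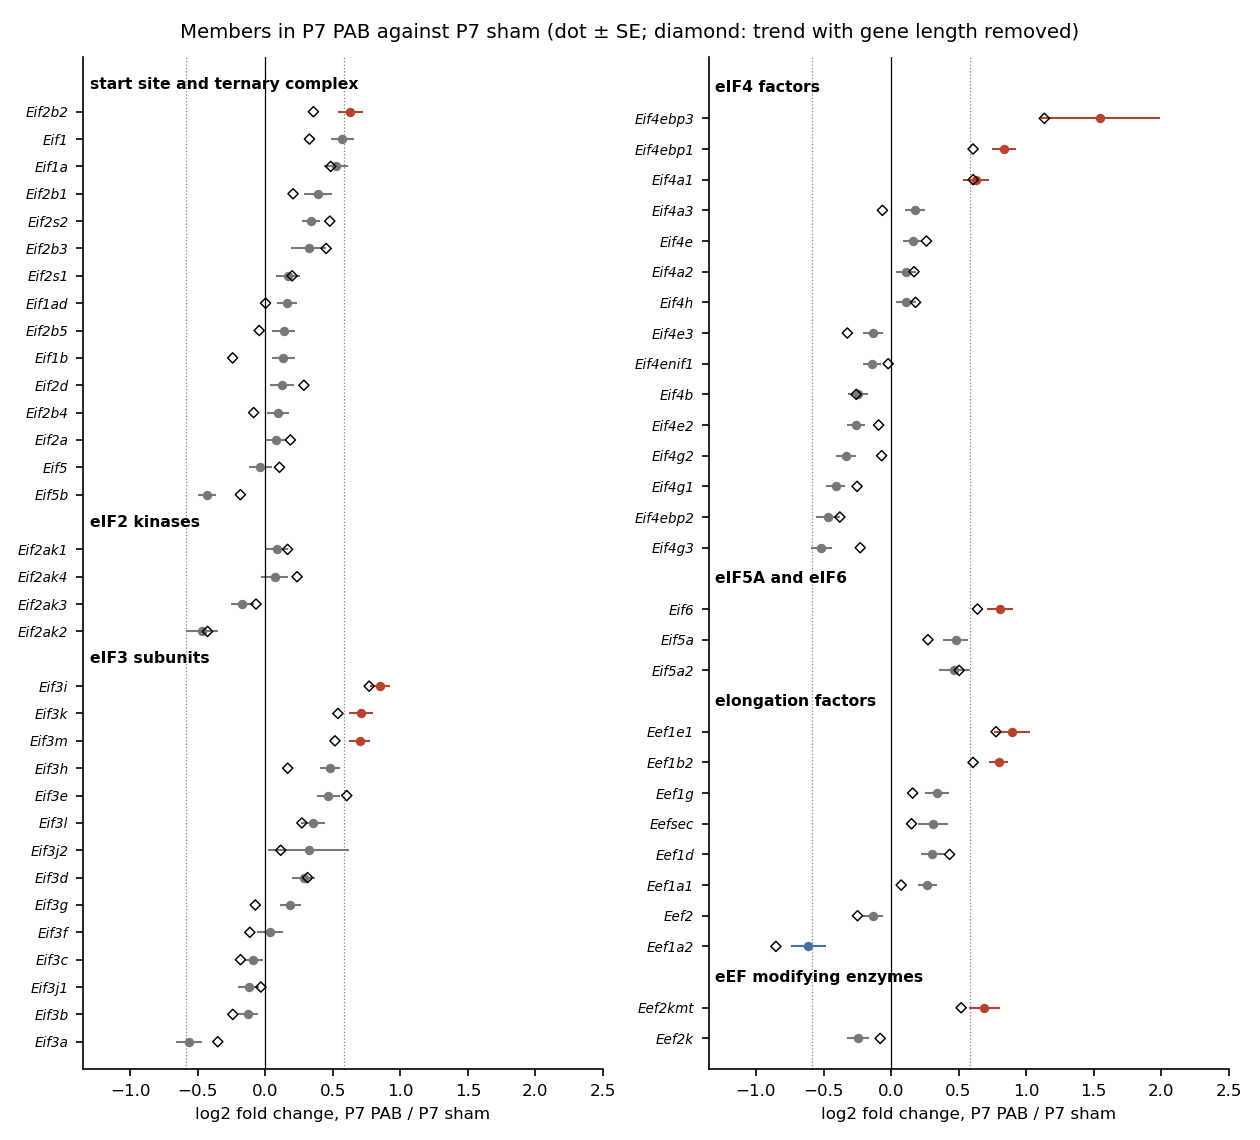
Log2 fold change of each of the 61 tested genes in P7 PAB against P7 sham (x axis), grouped by role. Dots with bars are the fitted value ± SE, red where called higher, blue where called lower and grey otherwise, diamonds are values with the trend with gene length removed, and dotted lines mark 1.5-fold. Eif4ebp3 at 1.55 lies farthest to the right and Eef1a2 at -0.61 farthest to the left.

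Eef1a1 lies on chromosome 9 (78478449 to 78489151, minus strand, GENCODE M21 on GRCm38). Its levels were 3691, 3538 and 3507 CPM in P3 sham, 3638, 3690 and 3566 CPM in P3 PAB, 3070, 3142 and 2942 CPM in P7 sham, and 3851 and 3504 CPM in P7 PAB. The 3 P7 sham libraries were below the other 8, and the other groups overlapped. Eef1a1 was 0.27 ± 0.07 (SE) higher on the log2 scale in P7 PAB than in P7 sham, with an adjusted p of 0.005 (edgeR), which is under 1.5-fold. From P3 to P7 it fell by 0.23 ± 0.06 in sham (adjusted p = 0.01) and differed by 0.02 ± 0.07 in PAB (adjusted p = 0.85). Scaling to the total count instead gave -0.54 in sham and -0.23 in PAB (adjusted p of at most 0.0065). Removing the trend with gene length left a difference of 0.08 at P7 (adjusted p = 0.39).

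Eef1a2 lies on chromosome 2 (181147653 to 181157014, minus strand). Its levels were 326, 364 and 302 CPM in P3 sham, 356, 386 and 361 CPM in P3 PAB, 457, 353 and 352 CPM in P7 sham, and 220 and 287 CPM in P7 PAB. Both P7 PAB libraries were below every other library. Eef1a2 fell by 0.61 ± 0.13 on the log2 scale in P7 PAB against P7 sham (adjusted p = 0.0012, edgeR), and it was 0.15 ± 0.11 higher in P3 PAB than in P3 sham (adjusted p = 0.79). From P3 to P7 it differed by 0.23 ± 0.11 in sham (adjusted p = 0.13, edgeR), or -0.083 when scaled to the total count. Without P7 sham replicate 1 this difference was 0.093 (adjusted p = 0.52). In PAB it differed by -0.54 ± 0.13 between the ages (adjusted p = 0.0032, edgeR, under 1.5-fold), which was -0.36 (adjusted p = 0.069) without P7 PAB replicate 1. It was called lower with age in PAB without P7 PAB replicate 2 (-0.74), under the replicate block (-0.59), with the length trend removed (-0.76) and when scaled to the total count (-0.78). The change with PAB differed between the ages, with an interaction of -0.77 ± 0.17 (adjusted p = 0.0047). With the length trend removed, the difference at P7 was -0.85 (adjusted p = 5.5e-05). Without P7 PAB replicate 1 it was -0.43, without P7 sham replicate 1 it was -0.48, and with the class by Xist and Y transcripts as a term, which only P3 sham replicate 1 separates from the groups, it was -0.64 (adjusted p = 0.054). None of these 3 values was called, the first 2 because they were under 1.5-fold.

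The eEF1A forms were also compared per kilobase within each library. At P3, Eef1a2 made up 9.55%, 11.0% and 9.33% of the summed RPKM of both genes in the sham libraries and 10.5%, 11.1% and 10.8% in the PAB libraries. At P7 it made up 15.1%, 11.8% and 12.5% in sham hearts and 6.39% and 8.92% after PAB. The share was highest in P7 sham and lowest in P7 PAB, and the P3 groups lay between them. The log2 ratio of Eef1a2 to Eef1a1 was lower by -0.88 in P7 PAB than in P7 sham (exact permutation test, two-sided, p = 0.1, which is the lowest that 10 splits can give), and higher by 0.14 in P3 PAB than in P3 sham (exact p = 0.3). Over both ages, with libraries exchanged within age, the difference between PAB and sham was -0.37 (exact p = 0.145 over 200 splits), and with libraries exchanged within operation the difference between P7 and P3 was -0.06 (exact p = 0.8). From P3 to P7 the ratio differed by 0.45 in sham and by -0.57 in PAB, each with an exact p of 0.1. Neither the 20 splits of the sham libraries nor the 10 splits of the PAB libraries allow a smaller two-sided p. These comparisons share the P7 libraries.

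**Figure D2:**
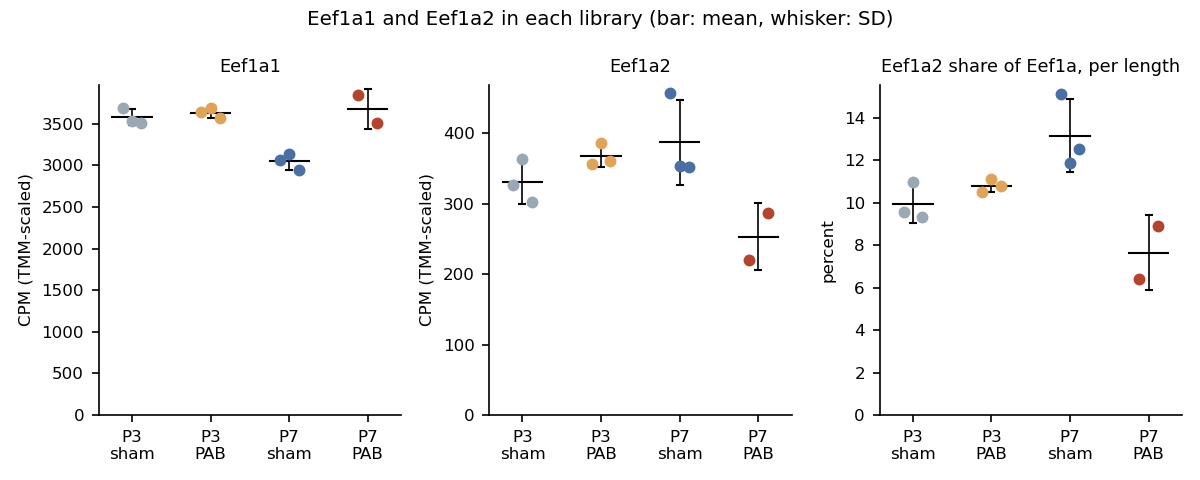
Eef1a1 and Eef1a2 in CPM, and Eef1a2 as a percent of the summed RPKM of both genes (y axes), in the 4 groups (x axis). Points are libraries, bars are means and whiskers are SD, and the P7 PAB points for Eef1a2, at 220 and 287 CPM, lie below all others.

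Among the other elongation genes, Eef1b2 and Eef1e1 rose in P7 PAB. Eef1b2, a subunit that recharges eEF1A with GTP, was at 137, 146 and 131 CPM in P3 sham, 150, 153 and 142 CPM in P3 PAB, 123, 116 and 116 CPM in P7 sham, and 212 and 198 CPM in P7 PAB. The P7 PAB libraries were above all others, and the P7 sham libraries below all others. The difference at P7 was 0.80 ± 0.07 (adjusted p = 1.5e-06, edgeR). An exon of Eef1b2 overlaps Ndufs1 on the opposite strand, a gene with more counts, and the strand setting of the counting is not given in the sources used here, so reads of the pair cannot be told apart.

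Eef1e1 encodes a small protein of the multi-tRNA synthetase complex. It was at 9.19, 9.40 and 8.60 CPM in P3 sham, 11.2, 10.3 and 12.1 CPM in P3 PAB, 8.52, 6.41 and 6.41 CPM in P7 sham, and 14.3 and 12.1 CPM in P7 PAB. PAB libraries were above sham libraries at both ages. The log2 difference was 0.30 ± 0.12 at P3 (adjusted p = 0.47) and 0.89 ± 0.13 at P7 (adjusted p = 8.1e-05, edgeR). Eef1g, Eef1d and Eefsec were higher at P7 by 0.34, 0.31 and 0.31 at adjusted p-values of at most 0.033, all under 1.5-fold. With the length trend removed, Eef1g was at 0.16 (adjusted p = 0.13), Eefsec at 0.15 (adjusted p = 0.29) and Eef1d at 0.43 (adjusted p = 0.0016), and without P7 PAB replicate 1 none of the 3 had an adjusted p under 0.05 (0.058 to 0.40). Eef2, the translocase, was at 1716 to 1909 CPM in P7 sham and 1606 to 1657 CPM in P7 PAB, a difference of -0.14 ± 0.07 (adjusted p = 0.15).

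The enzymes that act on eEF2 differed in direction. Eef2kmt, whose product methylates eEF2, was at 11.8, 12.7 and 10.1 CPM in P3 sham, 12.3, 12.3 and 11.7 CPM in P3 PAB, 10.3, 8.41 and 9.56 CPM in P7 sham, and 16.2 and 14.2 CPM in P7 PAB. Both P7 PAB libraries were above the rest, and the difference was 0.69 ± 0.12 (adjusted p = 0.00024, edgeR). Eef2kmt shares exonic sequence with Alg1 on the opposite strand. Eef2k, the kinase that slows elongation by phosphorylating eEF2, was at 39.3, 43.2 and 44.0 CPM in P3 sham, 37.2, 42.0 and 38.2 CPM in P3 PAB, 43.2, 46.0 and 45.6 CPM in P7 sham, and 35.7 and 40.2 CPM in P7 PAB. At P7 its PAB libraries were below the sham libraries, with a difference of -0.24 ± 0.08 (adjusted p = 0.027), under 1.5-fold, and with the length trend removed the difference was -0.080 (adjusted p = 0.45).

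Of the 14 eIF3 genes, 3 were called higher in P7 PAB and none lower, against the 9.63% and 8.59% of all genes given above, and of the 4 with values below 0 only Eif3a had an adjusted p under 0.05. eIF3 is the large complex that holds the small subunit ready for mRNA. Eif3i was at 78.6, 79.0 and 72.1 CPM in P3 sham, 79.7, 79.0 and 81.3 CPM in P3 PAB, 63.8, 58.9 and 58.4 CPM in P7 sham, and 115 and 102 CPM in P7 PAB. The P7 sham libraries were the lowest and the P7 PAB libraries the highest, and the difference at P7 was 0.85 ± 0.07 (adjusted p = 1.2e-06, edgeR).

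Eif3m was at 89.8, 82.4 and 83.6 CPM in P3 sham, 92.5, 92.0 and 80.3 CPM in P3 PAB, 72.7, 76.7 and 68.9 CPM in P7 sham, and 117 and 119 CPM in P7 PAB. Eif3k was at 65.1, 66.0 and 65.2 CPM in P3 sham, 65.4, 70.1 and 64.3 CPM in P3 PAB, 71.4, 58.8 and 65.3 CPM in P7 sham, and 117 and 96.0 CPM in P7 PAB. For both genes the P7 PAB libraries stood above all others, by 0.70 ± 0.08 (adjusted p = 7.3e-06) and 0.71 ± 0.09 (adjusted p = 2.4e-05) at P7 on the log2 scale. The call of Eif3k was lost without P7 PAB replicate 1 (0.56, adjusted p = 0.0008, under 1.5-fold). Eif3h, the eIF3 gene with the highest RPKM, was at 122, 126 and 123 CPM in P3 sham, 138, 141 and 130 CPM in P3 PAB, 153, 134 and 135 CPM in P7 sham, and 203 and 189 CPM in P7 PAB. PAB was above sham at both ages for Eif3h, and the difference at P7 was 0.48 ± 0.07 (adjusted p = 0.00012), under 1.5-fold. With the length trend removed it was 0.17 (adjusted p = 0.043), and with the Xist class as a term too it was 0.14 (adjusted p = 0.42). At the other end, Eif3a, the largest subunit and scaffold of the complex, averaged 283 ± 20.9 CPM (SD, n = 3) in P7 sham and 191 ± 35.1 CPM (n = 2) in P7 PAB, a difference of -0.57 ± 0.10 (adjusted p = 0.0003, edgeR) just under 1.5-fold. It was -0.77 and called lower without P7 PAB replicate 1, -0.39 without P7 PAB replicate 2 and -0.35 with the length trend removed (adjusted p = 0.0075).

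The eIF4 genes split in the same comparison, with 3 called higher, none lower (against 9.63% and 8.59% of all genes) and 8 of 15 below 0. Eif4ebp1, whose product holds back eIF4E, was at 86.5, 87.5 and 75.6 CPM in P3 sham, 94.4, 99.0 and 98.3 CPM in P3 PAB, 91.2, 74.4 and 81.1 CPM in P7 sham, and 155 and 138 CPM in P7 PAB. Both P7 PAB libraries were above all others, with a difference of 0.84 ± 0.09 (adjusted p = 5.7e-06, edgeR). Its 2 relatives did not follow one direction. Eif4ebp2 averaged 126 ± 1.45 CPM (n = 3) in P7 sham and 91.1 ± 13.7 CPM (n = 2) in P7 PAB (difference -0.46 ± 0.09, adjusted p = 0.00061), and Eif4ebp3 averaged 1.09 ± 0.458 CPM and 3.16 ± 0.222 CPM (difference 1.55 ± 0.44, adjusted p = 0.0099, edgeR). Eif4ebp3 rests on few counts, 28.9 per library on average, and its call was lost with a stricter filter on low counts, without P7 PAB replicate 1, with the length trend removed and with the Xist class as a term.

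Eif4a1, the main eIF4A helicase gene, was at 367, 352 and 310 CPM in P3 sham, 396, 370 and 372 CPM in P3 PAB, 300, 273 and 258 CPM in P7 sham, and 469 and 388 CPM in P7 PAB. The P7 sham libraries were the lowest, P7 PAB replicate 2 lay within the range of P3 PAB, and the difference at P7 was 0.63 ± 0.10 (adjusted p = 0.0001, edgeR). The call was lost without P7 PAB replicate 1 (0.49) and without P7 sham replicate 3 (0.58), both with adjusted p-values of at most 0.0034. Of the scaffold genes, Eif4g3 was at 101, 101 and 105 CPM in P3 sham, 98.3, 98.8 and 110 CPM in P3 PAB, 115, 104 and 106 CPM in P7 sham, and 70.8 and 80.7 CPM in P7 PAB. Both P7 PAB libraries of Eif4g3 were below all others, and the difference was -0.52 ± 0.08 (adjusted p = 0.00011), under 1.5-fold. Eif4g1 and Eif4g2 were lower by values of -0.41 and -0.33 on the same scale. Once the length trend was removed, the values were -0.23 (adjusted p = 0.043) for Eif4g3, -0.25 (adjusted p = 0.013) for Eif4g1 and -0.070 (adjusted p = 0.41) for Eif4g2, and with the Xist class as a term too no adjusted p of the 3 was under 0.05. The cap-binding gene Eif4e differed by 0.16 ± 0.07 (adjusted p = 0.086).

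**Figure D3:**
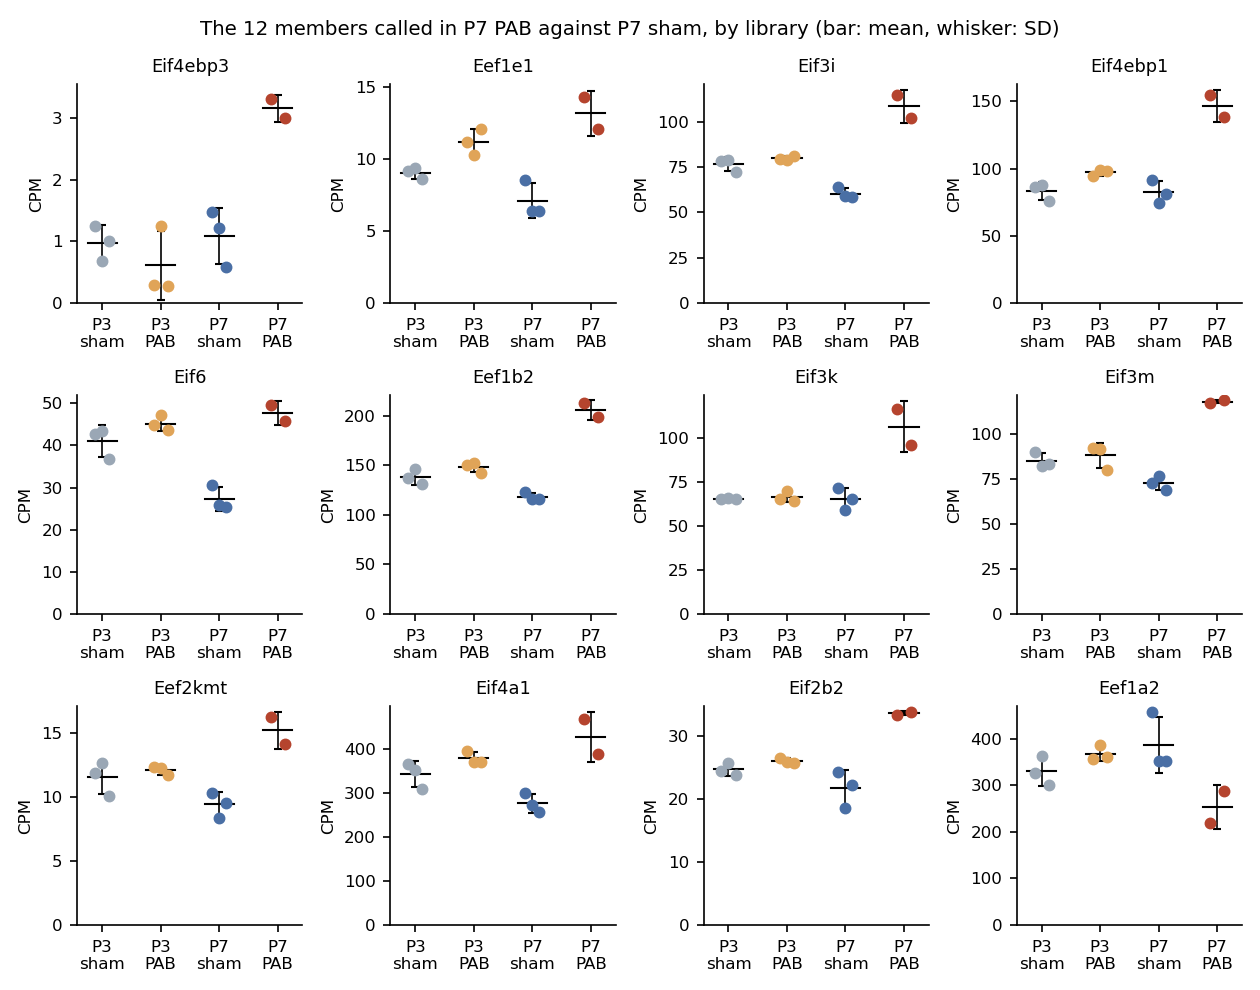
Levels in CPM (y axes, from 0) of the 12 genes called in P7 PAB against P7 sham, in the 4 groups (x axes). Points are libraries, bars are means and whiskers are SD. In the first 11 panels the P7 PAB points lie above the P7 sham points, and in the last, Eef1a2, they lie below.

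Eif6, whose product keeps the large ribosomal subunit apart from the small one, changed with age in sham as well as with PAB at P7. It was at 42.8, 43.5 and 36.7 CPM in P3 sham, 44.8, 47.1 and 43.6 CPM in P3 PAB, 30.6, 25.8 and 25.4 CPM in P7 sham, and 49.7 and 45.7 CPM in P7 PAB. The P7 sham libraries stood below the other 8. Against P7 sham, Eif6 rose in P7 PAB by 0.81 ± 0.10 (adjusted p = 1.5e-05, edgeR), and it was 0.08 ± 0.10 higher in P7 PAB than in P3 PAB (adjusted p = 0.53). From P3 to P7 in sham it fell by 0.59 ± 0.09 (adjusted p = 0.00016, edgeR), a call that was lost with the length trend removed and with a stricter filter on low counts. These comparisons share the P7 sham or the P7 PAB libraries.

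Eif5a and Eif5a2 encode the factor that carries hypusine and helps the ribosome past difficult peptide bonds. Eif5a was at 282, 277 and 240 CPM in P3 sham, 314, 296 and 291 CPM in P3 PAB, 296, 246 and 259 CPM in P7 sham, and 393 and 351 CPM in P7 PAB. Eif5a2 was at 10.3, 9.28 and 10.6 CPM in P3 sham, 10.1, 9.91 and 9.46 CPM in P3 PAB, 8.47, 10.0 and 8.34 CPM in P7 sham, and 13.5 and 11.2 CPM in P7 PAB. For both genes the P7 PAB libraries were the highest of all 11, with differences of 0.48 ± 0.09 (adjusted p = 0.00077) and 0.47 ± 0.12 (adjusted p = 0.0042, edgeR) that were under 1.5-fold. Eif5a was at 0.27 (adjusted p = 0.016, edgeR) with the length trend removed, and it was called higher with the Xist class as a term. Eif5a2 was at 0.33 without P7 PAB replicate 1. Across 22 settings Eif5a ranged from 0.24 to 0.60 and Eif5a2 from 0.33 to 0.60.

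Of the 15 genes that act at the start codon and in the ternary complex, 1 was called higher in P7 PAB and none lower, against 9.63% and 8.59% of all genes. Eif2b2, a subunit of the factor that exchanges GDP for GTP on eIF2, was at 24.4, 25.7 and 23.8 CPM in P3 sham, 26.5, 25.8 and 25.7 CPM in P3 PAB, 24.2, 18.6 and 22.2 CPM in P7 sham, and 33.3 and 33.8 CPM in P7 PAB. The P7 PAB libraries were above all others and the difference was 0.63 ± 0.09 (adjusted p = 8.9e-05, edgeR), which without P7 sham replicate 2 was 0.53 and under 1.5-fold. The other eIF2B genes, Eif2b1, Eif2b3, Eif2b4 and Eif2b5, differed by 0.09 to 0.39, and of these the test was passed without the fold threshold by Eif2b1 alone (adjusted p = 0.0068). The Xist class as a term gave 0.70 for Eif2b3 (adjusted p = 0.020), which was then called higher. Eif1, which guards the choice of start codon, was at 226, 262 and 238 CPM in P3 sham, 265, 262 and 229 CPM in P3 PAB, 232, 224 and 222 CPM in P7 sham, and 318 and 353 CPM in P7 PAB. The P7 PAB libraries were the highest of all 11. Their difference from P7 sham of 0.57 ± 0.09 (adjusted p = 8.7e-05) was just under 1.5-fold, and 13 annotated genes or pseudogenes share at least 95% of 300 or more bases with it, so its reads may be divided among copies. After the length trend was removed, the difference of Eif1 was 0.33 (adjusted p = 0.0053), and with the Xist class as a term too it was 0.18 (adjusted p = 0.39). In the other direction, Eif1 was called higher with scaling by the total count, in a fit of the P7 groups alone and without P7 sham replicate 1. Its highest value across settings was 0.64.

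Eif5b, a large GTPase that joins the subunits, went the other way. It was at 80.6, 76.1 and 80.6 CPM in P3 sham, 84.9, 80.1 and 77.5 CPM in P3 PAB, 85.6, 87.3 and 84.2 CPM in P7 sham, and 62.5 and 64.6 CPM in P7 PAB. The P7 PAB libraries were the lowest of all 11, with a difference of -0.43 ± 0.07 (adjusted p = 0.00012, edgeR) that was under 1.5-fold. Removal of the length trend left -0.18 (adjusted p = 0.040), and with the Xist class as a term too it was -0.14 (adjusted p = 0.47). Exons of Eif5b overlap Rev1 on the opposite strand.

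None of the 4 eIF2 kinase genes was called at P7, where 9.63% of all genes were called higher and 8.59% lower. Eif2ak2, which encodes the kinase PKR that senses double-stranded RNA, was at 28.5, 25.5 and 23.6 CPM in P3 sham, 24.1, 25 and 21.8 CPM in P3 PAB, 20.8, 25.5 and 22.4 CPM in P7 sham, and 18.1 and 14.9 CPM in P7 PAB. Its P7 PAB libraries were the lowest, with a difference of -0.47 ± 0.12 (adjusted p = 0.0042, edgeR), under 1.5-fold, and with the Xist class as a term it was -0.26 (adjusted p = 0.33). Without P7 PAB replicate 1 it was -0.62 and called lower (adjusted p = 0.005), and without P7 PAB replicate 2 it was -0.34 (adjusted p = 0.066). Eif2ak3, which encodes the endoplasmic reticulum kinase PERK, was at 19.1, 20.2 and 19.8 CPM in P3 sham, 19.2, 20.0 and 18.7 CPM in P3 PAB, 19.8, 18.9 and 20.1 CPM in P7 sham, and 16.4 and 18.4 CPM in P7 PAB, a difference of -0.17 ± 0.08 at P7 (adjusted p = 0.11). Eif2ak1, the heme-regulated kinase gene, was at 36.0, 34.9 and 33.5 CPM in P3 sham, 36.1, 34.8 and 32.7 CPM in P3 PAB, 36.6, 39.4 and 38.4 CPM in P7 sham, and 44.3 and 36.4 CPM in P7 PAB. The P7 groups overlapped for Eif2ak1, with a difference of 0.08 ± 0.09 (adjusted p = 0.46), and Eif2ak4 differed by 0.07 ± 0.10 (adjusted p = 0.63).

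From P3 to P7, 0 of 61 genes were called higher and 1, Eif6, lower in sham, against 5.62% and 5.73% of all genes by edgeR. Without the threshold on fold change, 8 were higher and 19 lower (13.1% and 31.1%), against 16.2% and 16.8% of all genes. The fold of Eif6 was close to the threshold, and its call was lost when P3 sham replicate 1 or 2 or P7 sham replicate 2 or 3 was left out. DESeq2 gave the same counts, and 31 of the 61 genes had an unadjusted p under 0.05, against 43.2% of all genes. In PAB hearts 4 were called higher (Eif3e, Eif3k, Eif4ebp1 and Eif4ebp3) and 2 lower (Eif3a and Eif4ebp2), against 9.5% and 8.2% of all genes. Without P7 PAB replicate 1, 2 were called higher (Eif4ebp1 and Eif3k were lost) and 2 lower (Eif4ebp2 was lost and Eif2ak2 added), against 7.33% and 6.9% of all genes. Eif3e averaged 71.6 ± 1.46 CPM in P3 sham, 71.6 ± 6.57 CPM in P3 PAB, 92.9 ± 9.07 CPM in P7 sham (n = 3 each) and 128 ± 0.393 CPM in P7 PAB (n = 2). It rose by 0.84 ± 0.09 in PAB (adjusted p = 4.3e-06, edgeR) and by 0.37 ± 0.08 in sham (adjusted p = 0.0022, under 1.5-fold). Scaling by the total count moved the median of all genes by -0.31 in sham and -0.25 in PAB, and with it 12 and 10 of the 61 genes were called lower with age, against 18.2% and 19.4% of all genes.

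The change with PAB differed between P7 and P3 for 23 of the 61 genes (interaction of age and operation, adjusted p of at most 0.05, edgeR), 15 upward and 8 downward. These are 24.6% and 13.1% of the genes, against 13.3% and 12.6% of all genes tested. The interaction uses the same P7 libraries as the comparison at P7. The median interaction of the 61 genes was 0.12, and 0.088 without P7 PAB replicate 1, which leaves 1 library in that group.

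Differences at P7 were related to exonic length, although the gene called lower, Eef1a2, has 2084 exonic bases and its difference was larger with the trend removed. Over the 61 genes, the log2 fold change in P7 PAB and exonic length had a Spearman correlation of -0.53, and over the 15195 tested genes with a length it was -0.37. These are correlations across genes in the same libraries, and genes are not independent replicates. The genes with the most exonic bases, Eif4g3 at 11063, Eif4g2 at 10166, Eif5b at 9753 and Eif3a at 8731, were lower at adjusted p-values of at most 0.002 without reaching 1.5-fold (edgeR). Eif4ebp3, with 744 exonic bases, rose the most. When the trend of each library with length over all genes was removed, 7 genes were called higher and 1 lower, against 6.41% and 7.07% of all genes. Eef1b2, Eef1e1, Eif3i, Eif4a1, Eif4ebp1, Eif6 and Eef1a2 kept their calls and Eif3e was added. Eif2b2, Eef2kmt, Eif3k and Eif3m differed by 0.36 to 0.54 with the trend alone removed, below 1.5-fold but at adjusted p-values of at most 0.0034. With the Xist class as a term as well, a choice made after seeing the data, Eef1b2 was at 0.583 (adjusted p = 0.0059) and just under 1.5-fold, Eif2b2 was at 0.33 (adjusted p = 0.14), Eef2kmt at 0.57 (adjusted p = 0.062) and Eif3k at 0.52 (adjusted p = 0.032), and Eif3m was called higher at 0.62. What set the length trend was not tested.

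**Figure D4:**
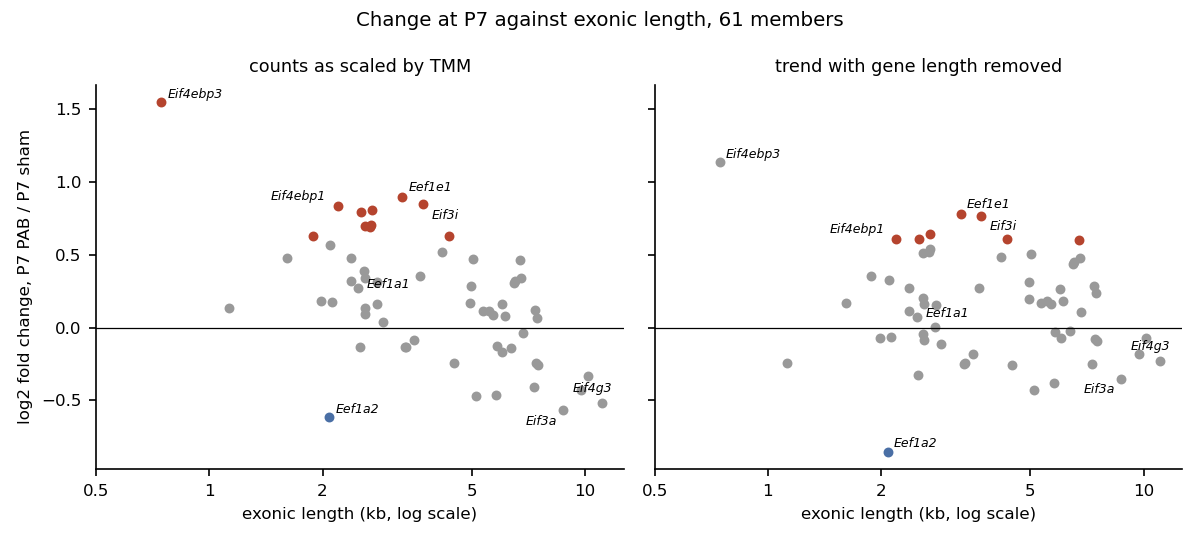
Log2 fold change in P7 PAB against P7 sham (y axis) against exonic length in kilobases on a log axis (x axis) for the 61 tested genes, as fitted (left) and with the trend with gene length removed (right). Each point is a gene, red where called higher, blue where called lower and grey otherwise. Eif3a and Eif4g3, with many exonic bases, lie below 0 in both panels, at -0.57 and -0.52 on the left and at -0.35 and -0.23 on the right.

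Genes outside the eIF and eEF names but in the same pathway were taken from lists. Of 9 genes that act in making hypusine on eIF5A or diphthamide on eEF2, 5 were called higher in P7 PAB and none lower, against 9.63% and 8.59% of all genes. Their median log2 difference was 0.69, against -0.00374 over all genes tested. The 5 called were Dhps (0.71 ± 0.10), which makes the first step of hypusine, and the diphthamide genes Dph1 (0.83 ± 0.14), Dph3 (0.72 ± 0.09), Dph7 (0.69 ± 0.14) and Dnajc24 (0.89 ± 0.13), all at adjusted p-values of at most 0.00081 by edgeR. With the length trend removed, 3 of the 9 were called higher (Dph1, Dph3 and Dph5), against 6.41% of all genes, and the median was 0.49. Dhps (0.49), Dph7 (0.48) and Dnajc24 (0.54) were then under 1.5-fold, at adjusted p-values of at most 0.0091 (edgeR). The list's summed level was 107 to 119 CPM in P7 sham and 162 to 182 CPM in P7 PAB.

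Of 20 genes of the mTORC1 pathway, 4 were called higher and 1 lower in P7 PAB, against the same 9.63% and 8.59% of all genes. Lamtor1 (0.65 ± 0.08), Lamtor4 (0.78 ± 0.10) and Lamtor5 (0.84 ± 0.07), which anchor mTORC1 to the lysosome, and Tbc1d7 (0.72 ± 0.10), a subunit of the complex that restrains mTORC1, were higher, while Deptor, an inhibitor of mTOR, was lower with a value of -1.14 ± 0.13 (adjusted p = 1e-05, edgeR). With the length trend removed, Lamtor1 (0.53), Lamtor4 (0.42) and Lamtor5 (0.44) were under 1.5-fold at adjusted p-values of at most 0.0017 (edgeR), and Tbc1d7 and Rheb were higher and Deptor lower, against 6.41% and 7.07% of all genes. Of 21 tested genes of the ATF4 and integrated stress response list, 5 were called higher and 1 lower, against the same 9.63% and 8.59% of all genes. Atf4 (0.66 ± 0.09), Psat1, Psph, Asns and Gdf15 were higher, and Cebpg (-0.89 ± 0.09) was lower. With the trend removed Psat1, Psph and Gdf15 were higher and Cebpg, Cebpb, Atf5 and Chac1 lower, against 6.41% and 7.07%. Atf4 was then no longer called (0.45, adjusted p = 0.00049, edgeR). None of 6 release and recycling factors and none of 11 mitochondrial translation factors was called, with medians of -0.03 and 0.12. Of 22 other initiation genes 1 was called higher, Mcts2 (0.65 ± 0.11), with a median of -0.14. With the trend removed, Mcts2 was not called (0.24, adjusted p = 0.067, edgeR) and the median of these 22 was 0.024, while 1 mitochondrial factor, Guf1, was called higher (0.59).

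Beside these differences, the summed cardiomyocyte markers were 52664 to 60611 CPM in P7 sham and 44072 to 46635 CPM in P7 PAB, with 2 of 8 called lower. This and the marker counts below stand against 9.63% of all genes called higher and 8.59% called lower. Myh6 alone was at 28176 to 34842 CPM and 16628 to 17887 CPM, and the other 7 markers summed to 24488 to 25769 CPM in P7 sham and 27445 to 28748 CPM in P7 PAB, so the lower sum is that of Myh6. Fibroblast markers summed to 4938 to 5128 CPM and 3438 to 4339 CPM (2 of 7 lower), endothelial markers to 1365 to 1410 CPM and 1034 to 1134 CPM (0 of 6 called), and macrophage markers to 82.5 to 105 CPM and 67.1 to 77.3 CPM (1 of 5 lower). Smooth muscle markers summed to 559 to 754 CPM and 795 to 977 CPM (2 of 4 higher), and erythroid markers to 2242 to 3035 CPM and 3405 to 3905 CPM (0 of 6 called). Skeletal muscle markers summed to 1544 to 1808 CPM and 1626 to 1944 CPM (1 of 6 tested higher, with Myh4 at 0 in both P7 PAB libraries), but nearly all of this sum was Ckm, which heart muscle also expresses. The other 9 summed to 3.21 to 3.84 CPM and 4.93 to 5.76 CPM. Brown fat markers summed to 19 to 24.7 CPM and 37.6 to 41.4 CPM (1 of 1 tested higher, with Elovl3 at 0 in all 5 libraries of P7). Nearly all of this sum was Cidea, and the other 2 summed to 0 to 0.0972 CPM and 0.0437 to 0.0493 CPM, so it does not measure brown fat. The part of these cell markers in the differences of the translation factors was not tested.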

How the data were processed

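The data were counts per gene in 11 libraries of mouse hearts. The authors aligned reads with STAR 2.5.2b to GRCm38 (mm10), per the labels, and deposited raw whole-number counts without normalization; the counting tool, strand setting and Gencode release are not given in the sources used here. Names were matched to GENCODE M21, which gave positions and union exonic lengths; 27 listed names had been turned into dates. Counts were analysed in R 4.3.3 with edgeR 4.0.16 (TMM, filterByExpr, quasi-likelihood test, all 11 libraries in 4 groups), and a gene was called where it differed by 1.5-fold or more with p, adjusted by Benjamini-Hochberg over 15808 genes, not above 0.05; interactions had no fold threshold. Alternatives included DESeq2 1.42.0, other scalings and filters, a lowess trend (span 0.3) with exonic length removed, a term for the class by Xist and Y transcripts (Xist over 100 CPM), and leaving out each library. The fold threshold is the study's, whose p threshold was not stated to be adjusted. Similar transcripts were found with blastn 2.17.0 (95% identity, 300 bases). The eEF1A ratio was tested by exact permutation. Scripts were tested on simulated data. Total counts per library were 19274045 to 26820228, and precision was taken from the spread of the replicates. Genes given in every library were Eef1a1, Eef1a2 and, per role, the 3 with the lowest p in P7 PAB against P7 sham and the 1 with the highest RPKM; other genes are given by group means where called, or by range. Eif1a, Eif3j2, Eef1g, Eef1d, Eefsec, Eef2, Eif2ak4, Eif4e, Eif4g1, Eif4g2 and the eIF2B genes were named after their values were seen. The genes and lists were chosen with earlier results of these data known.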

Additional observations from a re-analysis of the deposited data

Results flagged for a closer look

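The change with PAB differed between P7 and P3, by the test of the difference itself (interaction of age and operation, edgeR, adjusted p of at most 0.05), for 23 of the 61 translation factor genes tested, 15 upward and 8 downward, against 13.3% and 12.6% of all genes. Among the genes described in every library, the interaction on the log2 scale was positive for Eif3i (0.7838), Eef1b2 (0.6905), Eif3k (0.6809), Eif6 (0.6696), Eif3m (0.6489), Eef2kmt (0.6277), Eif4ebp1 (0.6108), Eef1e1 (0.5906), Eif2b2 (0.5518), Eif1 (0.5119), Eif5a2 (0.4988), Eif4a1 (0.4855) and Eif3h (0.3394). It was negative for Eef1a2 (-0.7669), Eif4g3 (-0.5188) and Eif5b (-0.4636). With the trend with gene length removed, 14 of the 23 were still found and 4 others were added, against 10.5% upward and 8.81% downward of all genes, and the calls of Eef1e1, Eif2b2, Eif3h, Eif5b, Eif4g3 and Eif1 were among those lost. Without P7 PAB replicate 1, 14 of the 23 were found, against 7.98% and 8.26% of all genes, and Eef1e1, Eif3h, Eef2kmt, Eif5a2 and Eif4a1 were among those lost.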

How the results depend on the processing

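Of the 12 genes called in P7 PAB against P7 sham, all 12 kept their calls with DESeq2, with RLE size factors, with scaling by the total count, with no filter and in a fit of the P7 groups alone, and 11 with a stricter filter. In that comparison the count called higher, 11, became 25 with no threshold on fold change (22.8% of all genes). It was 7 with the length trend removed (6.41%), and 7 with the class by Xist and Y transcripts as a term too (5.1%), a choice made after seeing the data. The count called lower, 1, became 11 with no threshold and 0 with the class term, and was 1 to 3 when 1 library was left out. Eef1a2 was at -0.64 with the class term and between -0.81 and -0.43 when 1 library was left out. From P3 to P7 in sham, 8 genes were higher and 19 lower with no threshold (16.2% and 16.8% of all genes), and lower calls numbered 12 with scaling by the total count, 0 with the stricter filter or the length trend removed, and 0 to 1 when 1 library was left out. In PAB, higher calls numbered 19 with no threshold (22.3% of all genes), 2 with scaling by the total count (4.08%) or the length trend removed (6.31%, also with the class term), and 2 to 4 when 1 library was left out, and lower calls numbered 14 with no threshold (21.2%) and 10 with scaling by the total count. The interaction count was 9 with the length trend removed and the class term, against 5.31% upward and 4.08% downward of all genes. It was 17 without P7 sham replicate 3 (9.97% and 9.2%) and 27 without P7 sham replicate 1 (15.8% and 14.5%). When 1 library was left out, Eif2ak1 at P7 ranged from -0.066 to 0.22, and the difference of the eEF1A ratio between P7 and P3 from -0.19 to 0.073. The causes were not tested.

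Replicate numbers are shared between groups. Correlations of same-numbered libraries' deviations from their group means ran from -0.10 to 0.14 over 15 pairs, with 1 above 0.1. Their median was 0.037, against -0.020 over 30 pairs with other numbers. Between P3 sham and P3 PAB, same-numbered pairs were at 0.083, 0.079 and 0.14, and pairs with other numbers at -0.085 to 0.0052. The numbers were not taken to pair the samples, although the values at P3 leave a pairing there unsettled. A replicate block gave 10 higher and 1 lower at P7, against 8.96% and 7.67% of all genes, losing Eif4a1. The block with the length trend removed gave 5 higher at P7 (5.86% of all genes), 0 lower with age in sham (5.98%) and 2 higher with age in PAB (6.12%). With no filter, edgeR set an infinite prior on the spread, so bias-adjusted residuals were tried as well and kept the 12 calls. Where 1 P7 PAB library was left out, the lone library was assumed to vary like the other groups.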
